A study of Homo sapiens with 35 samples.

Results

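The genes described here encode the proteins of the cytosolic ribosome. They were chosen by symbol among the protein-coding entries, as RPL or RPS with a number and an optional A, X or L, together with RPLP0, RPLP1, RPLP2 and RPSA. RPS27A was set apart because its product is fused to ubiquitin. Of 80 symbols that matched, 79 had at least 50 counts over all libraries, and RPL10L did not. The 79 genes, 31 of the small (40S) and 48 of the large (60S) subunit, were part of 17999 protein-coding entries with a count. They comprised 76 genes of the common ribosome and the paralogues RPL3L, RPL39L and RPS27L.

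RPMI-8226 is a multiple myeloma cell line, that is, a line of malignant plasma cells, and carfilzomib is an irreversible proteasome inhibitor. RNA was sequenced from 35 libraries, 5 on each of days 0, 1, 2, 4, 6, 8 and 10, to follow how the cells recovered after proteasome inhibition. The labels give the same treatment, carfilzomib at 750 nM for 1 h, for every library, day 0 included, whereas the study's methods place the collection on day 0 before the drug. All libraries came from subcultures split from one expanded culture of this line, and no untreated culture of a later day is among the libraries, so the p-values cover the spread between subcultures, and time in culture cannot be told apart from the pulse. The methods place the collections from day 2 onwards immediately before the medium was changed, and cell density was adjusted on days 6 and 8. Each library held between 6519392 and 10962890 estimated counts. Levels are given in CPM, counts of protein-coding genes scaled to a common effective library size by TMM. All 8 plasma cell markers averaged above 1 CPM, as did 2 of 3 B cell and 1 of 2 T cell markers. No monocyte or fibroblast marker did. The plasma cell markers had a sum of 1310 to 2340 CPM per library. The summed CPM was 5.76 to 16.9 for 3 B cell markers, 0.588 to 4.81 for 2 T cell markers, 0 to 2.15 for 2 monocyte markers and 0 to 1.43 for 2 fibroblast markers, of which 1 had a count. The summed plasma cell markers averaged 1990 CPM on day 0 and 1410 CPM on day 1, and their part in the results below was not tested.

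Ribosomal proteins coat and stabilize the ribosomal RNA, and each is needed in about equal number in every ribosome. Their mRNAs are short, abundant and long-lived, and most begin with a C followed by an uninterrupted run of pyrimidines, the terminal oligopyrimidine (TOP) motif, through which mTOR and LARP1 control their translation and stability. Plasma cells have a large ribosome pool because they secrete immunoglobulin. Ribosomal proteins made in excess of ribosomal RNA are degraded by the proteasome.

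The start sites of the genes on which the results turn are shown here because most of the listed starts of these genes carry the TOP motif, with RPS27L as an example of a start without it. The windows are from RefSeq on GRCh38.p14 and run from 10 bases before the annotated start to 20 bases from it, 5′ to 3′ on the strand of the gene, with the pyrimidine tract in capitals. A tract was counted when a C followed by at least 4 pyrimidines began within 5 bases of the start. RPL12 lies on the minus strand (chr9:127451387-127451416), as do RPL3 (chr22:39319604-39319633), RPS27L (chr15:63157458-63157487), RPL39 (chrX:119791611-119791640) and RPS6 (chr9:19380217-19380246). RPS27 (chr1:153990752-153990781), RPLP1 (chr15:69452808-69452837), RPS24 (chr10:78033853-78033882) and RPSA (chr3:39406710-39406739) lie on the plus strand.
RPL12: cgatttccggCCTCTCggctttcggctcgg
RPL3: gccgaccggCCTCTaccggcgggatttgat
RPL39: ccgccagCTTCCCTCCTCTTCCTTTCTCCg
RPLP1: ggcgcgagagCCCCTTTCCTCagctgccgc
RPS6: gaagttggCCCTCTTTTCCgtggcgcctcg
RPS24: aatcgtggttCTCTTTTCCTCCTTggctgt
RPSA: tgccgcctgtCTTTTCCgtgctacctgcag
RPS27: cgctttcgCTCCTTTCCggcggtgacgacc
RPS27L: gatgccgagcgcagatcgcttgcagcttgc

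A start was listed for 62 of the 79 genes, and 52 of these 62 had a tract at one start or more. By start rather than by gene, 56 of 75 windows (74.7%) had a tract, and so did 21.8% of the 22124 windows of other protein-coding genes and 21.1% of all 35116 windows of the table. The 10 genes without one were RPL6, RPL9, RPL15, RPL17, RPL27, RPS4X, RPS15, RPS26, RPS27L and RPS29. Of these 10 genes, all but the paralogue RPS27L are genes of the common ribosome, and for each only the letters near the annotated starts were read. Among motifs of the 300-base promoter windows (250 bases before the start and 50 from it, both strands), CCGGAAG, bound by GABPA and other ETS factors, occurred in 34.7% of the 75 windows, in 12.8% of those of other protein-coding genes and in 10.3% of all windows. AAGATGG, an initiator-region motif of YY1, occurred in 10.7%, 6.02% and 5.84% in the same order. For GGGCGG (the GC box) the shares were 57.3%, 56.3% and 45%, for CACGTG (the E-box bound by MYC and MAX) 5.33%, 8.35% and 7.26%, and for TATAAA (the TATA box) 6.67%, 9.48% and 11.5%. A CCGGAAG match can share bases with an AAGATGG match, and a match does not show binding. On day 1 the median log2 fold change was -0.75 for the 52 genes with a tract and -0.70 for the 10 without, and on day 2 the medians were -0.71 and -0.69, values given without a test.

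Most ribosomal protein mRNAs were lower on days 1 and 2 and, by less, on day 4. Their summed share overlapped that of day 0 from day 6 onwards, while RPS27L stayed low and RPL39L was higher on day 2. The 79 genes held 11.2% ± 0.437 of protein-coding counts on day 0 (SD, n = 5). They held 7.28% ± 0.263 on day 1 and 7.60% ± 0.385 on day 2. The 5 libraries of day 1 ranged from 6.86% to 7.54% and those of day 2 from 7.03% to 8.02%, all below the lowest of day 0, 10.7%. On day 4 the share was 10.1% ± 0.174, with every library between 9.90% and 10.4%. It was 11.5% ± 0.380 on day 6, 11.9% ± 0.941 on day 8 and 11.1% ± 0.575 on day 10, and these libraries overlapped those of day 0. In bulk RNA, fewer cells with a transcript and less of it per cell cannot be told apart, and a share also moves with all other transcripts.

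**Figure D1:**
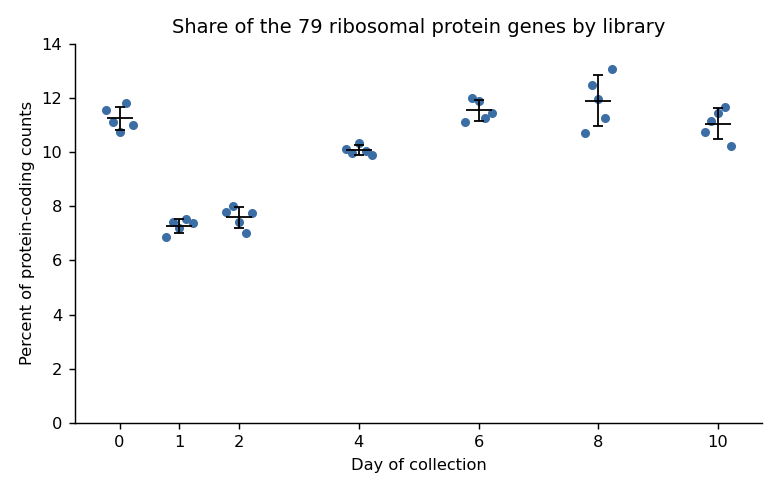
Share of protein-coding counts (percent, y axis) held by the 79 ribosomal protein genes against the day of collection (x axis). Each point is 1 library, bars are the mean and SD of 5 libraries. The libraries of days 1 and 2 sit between 6.86% and 8.02%, below all others, and those of day 8 are the most spread.

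Each gene was tested in an edgeR fit over all 17999 entries and called at an adjusted p (Benjamini-Hochberg) of at most 0.05, with no minimum fold. On day 1, 78 of the 79 genes were called lower than on day 0, whereas 27.3% of all entries were called lower. None was called higher, against 25.4% of all entries. By edgeR none was higher at an unadjusted p under 0.05 either, and DESeq2 also called none. The median log2 fold change of the 79 was -0.72, beside -0.06 over all entries. Of the 79, 10 were called lower by more than 2-fold, and so were 2371 of the 17999 entries, a similar share. In 74 of the 79 genes all 5 libraries of day 1 were below all 5 of day 0, which held for 20.1% of all entries. RPL39L was the gene not called. Without scaling factors, which moved the median of all filtered entries on day 1 from 0.01 to 0.12, the median of the 79 was -0.60.

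On day 2, 77 genes were called lower (24.4% of all entries) and RPL39L alone was called higher (23.2% of all entries). The median was -0.69 beside -0.04 over all entries. In 75 genes all libraries of day 2 lay below those of day 0 (18.2% of all entries), and RPL39L was the 1 gene with all of them above (18.6%). The lowest mean fell on day 1 for 48 genes, on day 2 for 30 and on day 8 for RPS27L.

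Between days 1 and 2 most of the genes were not called. Of the 79, 16 were higher on day 2 than on day 1, a share near that of all entries (20.2%), and 8, or 10.1%, were lower, beside 19.4% of all entries. The count of 8 became 5 without Day 1 replicate 4 and 4 without Day 2 replicate 4. RPL12, RPS2, RPL13A, RPL3 and RPL5 were among those called higher, by 0.49, 0.46, 0.35, 0.33 and 0.33 on the log2 scale. RPS19, RPLP1, RPL10 and RPS27 were among those called lower, and fell by 0.27, 0.26, 0.19 and 0.16. The subunits were not divided evenly in count, with 4 of the 31 small-subunit and 12 of the 48 large-subunit genes higher, and 5 and 3 lower, a difference that was not tested.

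From day 2 to day 4, 74 genes rose (13.9% of all entries) and 2 fell (16.7%), namely RPL39L and RPS27L. On day 4, 65 genes were still lower than on day 0 (20.1% of all entries), with a median of -0.29. None was called higher by edgeR (19% of all entries), none at an unadjusted p under 0.05 and none by DESeq2. From day 4 to day 6, 68 genes rose (6.09% of all entries) with a median of 0.27, and none fell (5.98%), none at an unadjusted p and none by DESeq2.

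On day 6, 2 genes were called higher than on day 0 (17.5% of all entries), RPL13A and RPS24, and 1 was lower (17%), RPS27L. Without Day 0 replicate 3 the genes lower were 2 and without Day 0 replicate 5 they were 3. On day 8, 5 were higher (18.2% of all entries), RPSA, RPL13A, RPS24, RPS2 and RPS9, by 0.25, 0.22, 0.22, 0.18 and 0.16 on the log2 scale, and RPS27L alone was lower (18.6%). That count of 5 moved to 3 without Day 0 replicate 3 or Day 8 replicate 2, to 9 without Day 0 replicate 4 and to 10 without Day 8 replicate 1. The members' median was -0.03 on day 6 and 0.03 on day 8. Between days 6 and 8 no gene was called higher (1.03% of all entries) or lower (1.53%) by edgeR, 3 were higher and none lower at an unadjusted p under 0.05, and DESeq2 called 1 higher and none lower.

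On day 10, 16 genes were called lower than on day 0, which is 20.3% of the 79 beside 15.8% of all entries, and none was higher (16.1% of all entries), none at an unadjusted p under 0.05 and none by DESeq2. The median was -0.10. The count of 16 was 3 without Day 0 replicate 4 or Day 10 replicate 5, 5 without Day 0 replicate 1, Day 0 replicate 2 or Day 10 replicate 1, and 10 without Day 0 replicate 5. It was 2 without scaling factors, when 2 genes were higher, 7 with scaling computed without the 79 genes or with counts summed over all biotypes, and 9 with only the libraries of the 2 days. The count was larger elsewhere, at 22 with DESeq2 and 22 without Day 10 replicate 4. By edgeR 28 genes were lower at an unadjusted p under 0.05.

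Of the named genes called lower on day 10, RPL3, RPL17, RPL23, RPL35A, RPL37, RPS19 and RPS27 each lost the call without scaling factors (adjusted p = 0.0639 to 0.2435 by edgeR) and with counts summed over all biotypes (0.051 to 0.166). Single libraries also decided these calls, with adjusted p = 0.0535 to 0.224 by edgeR where a call was lost. RPL37 lost it without Day 0 replicate 2, and RPL17 without Day 0 replicate 4 or Day 10 replicate 1 or 5. The other five lost it without Day 0 replicate 1, 2, 4 or 5 or Day 10 replicate 1 or 5, RPL35A also without Day 10 replicate 2 and RPS19 also without Day 10 replicate 3 or 4. In contrast, RPL26 was called lower with filterByExpr, RLE factors, the replicate block or DESeq2 and without Day 0 replicate 5 or Day 10 replicate 2 or 4. RPL11 was called lower with DESeq2 or without Day 10 replicate 4, and RPS24 was called higher without scaling factors, Day 0 replicate 4 or Day 10 replicate 1 or 5.

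From day 8 to day 10, 3 genes fell (4.97% of all entries), RPSA and RPLP2 among them, and none rose (5.08%). At an unadjusted p under 0.05, 37 were lower and 1 was higher, and DESeq2 called 13 lower and none higher. The 3 became 29 without Day 8 replicate 1, 7 without Day 10 replicate 4, 5 without Day 8 replicate 4, 1 without Day 10 replicate 3 or 5, and none without Day 8 replicate 2 or 5.

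**Figure D2:**
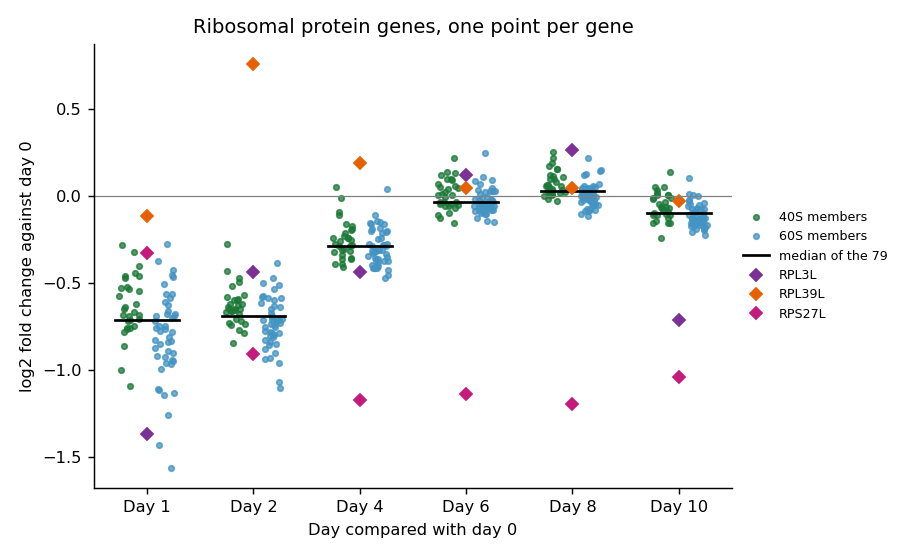
Log2 fold change of each of the 79 genes against day 0 (y axis) on days 1 to 10 (x axis), 1 point per gene. Green points are small-subunit and blue points large-subunit genes, diamonds are the 3 paralogues and black lines the medians, which run from -0.72 on day 1 to 0.03 on day 8 and -0.10 on day 10. RPS27L lies apart from the rest from day 4 onwards.

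The size of the fall differed between genes of the same subunit. On day 1 the large-subunit genes ranged from -1.56 to -0.12, with a median of -0.78, and the small-subunit genes from -1.10 to -0.28, with a median of -0.65. The small-subunit share of the 79 genes' counts was 35.4% ± 0.704 on day 0 and 37.4% ± 0.305 on day 1 (SD, n = 5), and the libraries did not overlap, with 34.2% to 36.0% on day 0 and 37.0% to 37.8% on day 1. Across the 76 common genes the day 1 change and the log2 CPM of day 0 had a Pearson correlation of -0.22 and a Spearman correlation of -0.23, points that share their day 0 libraries.

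RPL12, which binds at the base of the ribosomal stalk, fell most. Its level was 1445, 1417, 1418, 1608 and 1458 CPM in the 5 libraries of day 0 and 459, 501, 497, 521 and 507 CPM in those of day 1. The 2 days did not overlap, and the mean of day 1 was 33.8% of that of day 0. The log2 fold change was -1.56 (SE 0.0576, adjusted p = 4.25e-25 by edgeR). On day 2 it was 722, 773, 683, 615 and 702 CPM, above every library of day 1, and by day 10 the fold change was -0.05 (adjusted p = 0.51).

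RPL3, a core protein beside the peptidyl transferase centre, was the next. It measured 4816, 4674, 4468, 4953 and 4867 CPM on day 0 and 1680, 1792, 1779, 1847 and 1713 CPM on day 1. These libraries lay far apart, with a log2 fold change of -1.43 (SE 0.062, adjusted p = 8.13e-23). On day 2 the change was -1.10, the lowest of the 79 on that day, and on day 10 it was -0.16.

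RPL5 and RPL11 bind 5S ribosomal RNA as a particle that, when free of ribosomes, binds MDM2. RPL5 had 1934, 1814, 1877, 2095 and 1891 CPM on day 0 and 732, 812, 821, 798 and 856 CPM on day 1, without overlap, a log2 fold change of -1.26 (SE 0.0629, adjusted p = 1.03e-20). The change of RPL11 was -0.84 on day 1 and -0.75 on day 2. RPL23 and RPL26, which also bind MDM2, changed by -0.94 and -0.97 on day 1. On day 10 RPL5, RPL11, RPL26 and RPL23 were at -0.09, -0.13, -0.14 and -0.15.

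The acidic stalk recruits elongation factors. Its 3 proteins did not fall alike. RPLP1 had 4895, 4848, 4321, 5041 and 4491 CPM on day 0 and 3738, 3977, 3767, 4241 and 3754 CPM on day 1, a narrow separation with a log2 fold change of -0.28 (SE 0.0621, adjusted p = 0.000198), and -0.53 on day 2. RPLP0, the protein that anchors the stalk, changed by -0.51 and RPLP2, the partner of RPLP1, by -0.72 on day 1, and by -0.47 and -0.71 on day 2. None of the 3 was called on day 10 (-0.12, -0.09 and -0.08).

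Among the small-subunit genes RPS2, near the mRNA entry channel, and RPS25, needed by some viral internal ribosome entry sites, fell most among those named. RPS2 had 3497, 3500, 2892, 3542 and 3398 CPM on day 0 and 1482, 1616, 1483, 1718 and 1578 CPM on day 1, far apart, a log2 fold change of -1.10 (SE 0.0683, adjusted p = 1.31e-17). RPS25 changed by -1.0, and RPL10A, another subunit described as varying between ribosomes, by -0.92. RPS3, which lines the mRNA entry, changed by -0.86. RPS6, the S6 kinase substrate, had 2649, 2375, 2442, 2681 and 2300 CPM on day 0 and 1357, 1474, 1476, 1560 and 1531 CPM on day 1, with a change of -0.75 (SE 0.0653, adjusted p = 3.42e-13). It was at -0.79 on day 2 and -0.11 on day 10, when it was not called.

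RPS19, RPS14, RPS24 and RPL35A are haploinsufficient in Diamond-Blackfan anaemia or, for RPS14, in the 5q- syndrome. RPS19 changed little on day 1, from 812, 793, 744, 816 and 750 CPM to 596, 643, 622, 668 and 605 CPM, which did not overlap (-0.32, SE 0.061, adjusted p = 1.85e-05). It reached -0.60 on day 2. RPS14 changed by -0.64, RPS24 by -0.72 and RPL35A by -0.90 on day 1. On day 10 RPS19 and RPL35A were at -0.16 and -0.15, RPS14 at -0.06 and RPS24 at 0.14, the highest of the 79.

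RPSA, also known as a laminin receptor, had 1715, 1631, 1518, 1769 and 1628 CPM on day 0 and 1055, 1145, 1087, 1273 and 1096 CPM on day 1 (-0.55, SE 0.0634, adjusted p = 7.91e-10). On day 2 it was at -0.28, the smallest fall among the genes called, and its libraries overlapped those of day 0. On day 8 it had 1647, 2130, 1929, 1989 and 2149 CPM, 1 library within the range of day 0 and the other 4 above it (0.25, adjusted p = 0.00116). RPL13A, a component of the interferon-induced GAIT complex, changed by -1.13 on day 1, by 0.25 on day 6 and by 0.22 on day 8. RPS9 and RPL35 changed by -0.28 and -0.43 on day 1, RPL10 by -0.56, RPL30 by -0.56, RPS13 by -0.46, RPS29 by -0.67, RPL37 by -0.87 and RPL17 by -1.15. On day 10 RPL37 was at -0.23 and RPL17 at -0.17.

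The 3 paralogues behaved each in its own way. RPS27L differs from RPS27 in few positions. The coding length is 252 bases for both, and on day 0 RPS27 was at 5184 ± 343 and RPS27L at 595 ± 26.1 CPM per kb of coding length (SD, n = 5). RPS27L had 148, 141, 158, 155 and 148 CPM on day 0, 110, 125, 120, 122 and 121 CPM on day 1 and 75.4, 84.4, 80.3, 79.7 and 78.3 CPM on day 2. It had 60.1, 61.4, 68.4, 71.9 and 65.3 CPM on day 8 and 71.1, 75.7, 68.5, 77.2 and 71.2 CPM on day 10. No library after day 0 reached the day 0 range, and none from day 2 onwards reached that of day 1.

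Its log2 fold change against day 0 was -0.33 on day 1 and -0.91 on day 2. It then stayed near one level, at -1.18 on day 4, at -1.14 and -1.20 on days 6 and 8, and at -1.04 on day 10 (SE 0.054, adjusted p = 3.7e-19). On day 1 only 4 genes had a smaller change, and on days 4 to 10 it was the lowest of the 79. RPS27 itself went from 1287, 1342, 1199, 1431 and 1273 CPM on day 0 to 752, 806, 818, 873 and 814 CPM on day 1 (-0.68, adjusted p = 2.33e-13) and was at -0.03 on day 8 and -0.15 on day 10.

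RPL39L, best known from the testis, encodes a protein near that of RPL39, which lies in the exit tunnel. Both have a coding length of 153 bases, and on day 0 RPL39 stood at 7695 ± 1131 and RPL39L at 56.5 ± 5.15 CPM per kb of it. RPL39L had 8.44, 9.52, 8.04, 7.82 and 9.43 CPM on day 0, 8.53, 7.08, 7.62, 7.55 and 9.13 CPM on day 1 and 13.1, 14.7, 12.6, 15.7 and 17.5 CPM on day 2. Every library of day 2 was above every library of days 0 and 1.

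The log2 fold change of RPL39L on day 2 was 0.76 against day 0 (SE 0.151, adjusted p = 4.03e-05) and 0.88 against day 1 (SE 0.151, adjusted p = 5.48e-06). From day 2 to day 4 it fell by 0.57 (adjusted p = 0.00208), and on day 10 it was at -0.03. RPL39 had 1239, 1148, 1253, 1351 and 896 CPM on day 0 and 798, 802, 762, 704 and 781 CPM on day 2, in the direction opposite to its paralogue (-0.61, adjusted p = 5.45e-09).

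RPL3L, the paralogue of striated muscle, was close to the limit of detection. It had 1.97, 1.27, 1.25, 1.00 and 1.73 CPM on day 0 and 0.441, 0.787, 0.677, 0.343 and 0.507 CPM on day 1. All of day 1 was lower (-1.37, SE 0.467, adjusted p = 0.0103), a change that rests on a few counts per library. On day 2 its change was not called (-0.44), and 1 library had no count. On day 10 it was at -0.71 (adjusted p = 0.219).

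**Figure D3:**
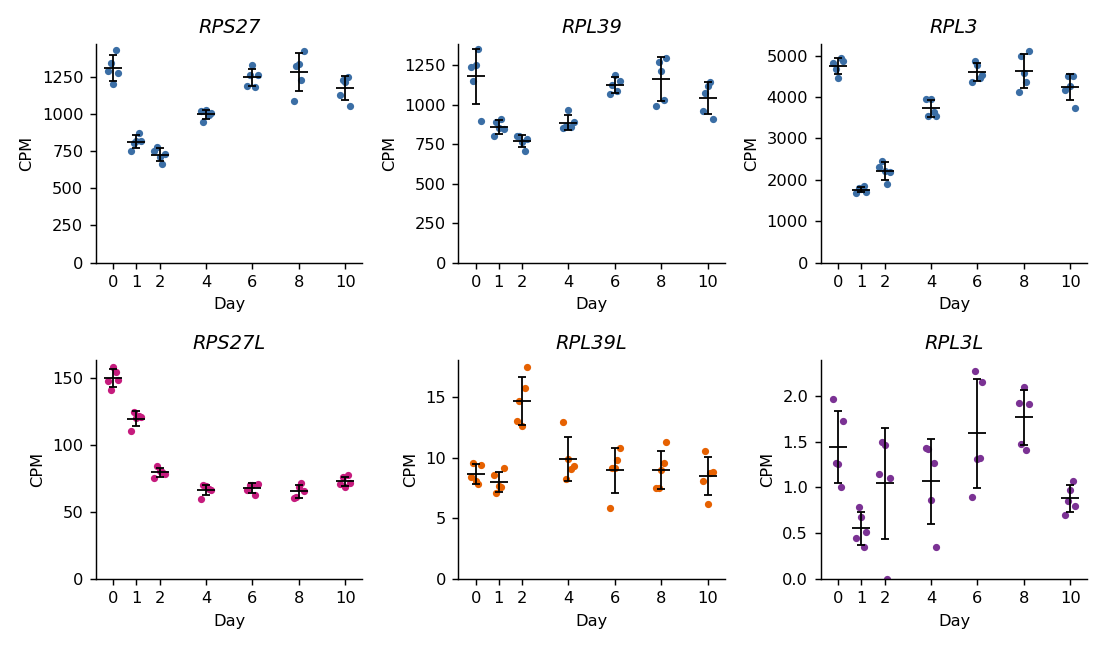
Level in CPM (y axis, each panel from 0) by day (x axis) for RPS27, RPL39 and RPL3 in the top row and their paralogues RPS27L, RPL39L and RPL3L below. Each point is 1 library, bars are the mean and SD of 5 libraries. RPS27L stays at 59.6 to 84.4 CPM from day 2 onwards and RPL39L peaks on day 2.

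Ribosomal proteins outside the symbol rule were divided on day 1. RPS27A and FAU, ribosomal proteins made as fusions with ubiquitin or a ubiquitin-like protein, fell by 0.51 and 0.35 on the log2 scale, and RPL7L1 and RPL36AL by 0.38 and 0.28. The paralogues RPL26L1 and RPL22L1 rose by 1.03 (SE 0.122, adjusted p = 1.24e-09) and 0.46 (SE 0.152, adjusted p = 0.00943). Of 7 genes outside the rule, 5 were lower (27.3% of all entries) and 2 higher (25.4%), with a median of -0.28.

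A list of 17 other TOP translation genes was chosen by name, and their starts were not read here gene by gene. Of these 17 genes, 14 were called lower on day 1 (27.3% of all entries) and 14 on day 2 (24.4%), with medians of -0.46 and -0.61. None was higher by edgeR on either day. At an unadjusted p under 0.05 none was higher on day 1 and 1 on day 2, and DESeq2 called none on either day. EEF2, the translocation factor, changed by -1.30, EIF3E, a subunit of initiation factor 3, by -1.10, EEF1A1, which delivers aminoacyl-tRNA, by -1.06 and the poly(A)-binding protein PABPC1 by -0.97. NPM1 and EEF1B2 were not called (-0.11 and -0.14). On day 4, 4 of the 17 were higher (19% of all entries) and 11 lower (20.1%). On day 6, 4 were higher (17.5%), by up to 1.28, and none was lower (17%), with a median of -0.03. At an unadjusted p under 0.05, 1 was lower on day 6, and DESeq2 called 1 lower. On day 10, 3 were higher (16.1%) and 4 lower (15.8%), with a median of -0.11.

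The mitochondrial ribosomal proteins, which form a separate ribosome, moved the other way on day 1. Of 74 genes, 62 were called higher (25.4% of all entries) and 4 lower (27.3%), with a median of 0.53. On day 2 the counts were 49 (23.2% of all entries) and 2 (24.4%) with a median of 0.32, and on day 4 they were 16 (19%) and 10 (20.1%) with a median of 0.04. On day 10, 15 of the 74 were higher beside 16.1% of all entries and 8 lower beside 15.8%, with a median of 0.02. The difference between these lists was not tested.

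**Figure D4:**
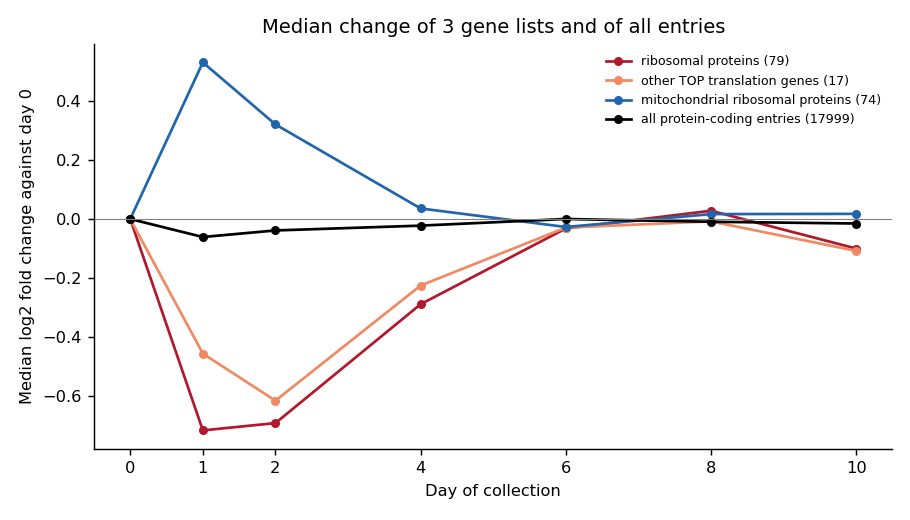
Median log2 fold change against day 0 (y axis) by day (x axis) of the 79 ribosomal protein genes, 17 other TOP translation genes, 74 mitochondrial ribosomal proteins and all 17999 protein-coding entries. The first 2 lists fall to -0.72 and -0.46 on day 1 while the mitochondrial list is at 0.53, and all are near 0 on day 8.

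Genes that act on ribosomal proteins were described by the same counts, beside 25.4% of all entries higher and 27.3% lower on day 1. Of 7 dedicated chaperones and importers, 4 were higher on day 1 and none was lower, also at an unadjusted p under 0.05 and by DESeq2. AAMP, the homologue of the yeast chaperone of RPL10, changed by 1.04, HEATR3, an importer of RPL5 and RPL11, by 0.83, and BCCIP, which binds RPL23, by 0.60. Of 7 ribosome quality control genes, 4 were higher and 1 lower. PELO, which rescues stalled ribosomes, changed by 1.21 (SE 0.0712, adjusted p = 1.75e-18), NEMF by 0.76, and UBE2O and HUWE1, which ubiquitinate unassembled ribosomal proteins, by 0.67 and 0.54. ZNF598, a sensor of collided ribosomes, changed by -0.27. On day 2, 2 of the 7 quality control genes were higher (23.2% of all entries) and 2 lower (24.4%), with PELO at -0.52. Of the 7 chaperones and importers, 4 were higher and 1 lower on that day.

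Of 6 regulators of TOP translation, 3 were higher and 2 lower on day 1, beside the same 25.4% and 27.3%. MTOR rose by 0.60, RPS6KB2 by 0.58 and LARP1, which binds the TOP cap, by 0.30. EIF4EBP1, the repressor of eIF4E, fell by 0.94 (SE 0.105, adjusted p = 2.82e-10) and EIF4EBP2 by 0.18. RPS6KB1, the main S6 kinase gene, was at -0.01 and not called. On day 10, 2 of the 6 were higher (16.1% of all entries) and 1 was lower (15.8%).

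Transcripts of the same genes with biotypes other than protein-coding have entries of their own, and most of the retained-intron ones were still lower on day 10. Of 128 such entries with at least 50 counts, 84 were called lower on day 1 (27.9% of 37369 entries of all biotypes) and none higher (15.1%), none at an unadjusted p under 0.05 and none by DESeq2. Retained-intron entries, transcripts in which an intron is left in, made up 65 of them. On day 1, 56 of these were lower, with a median of -0.91, beside 32% lower and a median of -0.62 over the 6371 retained-intron entries of other genes. On day 4, 61 were lower and the median was -1.17, beside 21.9% and -0.42. On day 10, 48 of the 65 were lower with a median of -0.90, beside 13.7% and -0.25 in other genes, and beside 16 of 79 and -0.10 among the protein-coding entries. These differences were not tested.

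In pooled counts the difference was small, but a pooled share is weighted by counts. For RPL11 the retained-intron share of the symbol was 47.4% on day 0 and 48.1% on day 10. For RPS19 it was 0.49% and 0.14%. Retained-intron entries held 8.89% ± 0.270 of all counts of the 79 symbols on day 0, 8.32% ± 0.241 on day 1 and 8.31% ± 0.106 on day 10 (SD, n = 5). Over other genes the retained-intron share was 7.42% ± 0.699, 5.04% ± 0.489 and 6.59% ± 0.581 on those days. Nonsense-mediated decay entries, which carry an early stop codon, numbered 31, of which 12 were lower on day 1 and 5 on day 10, with medians of -0.80 and -0.25. Of the 4135 such entries of other genes, 14% were lower on day 1 and 4.28% on day 10, with medians of -0.21 and -0.11. Of 27 processed pseudogenes named for these genes, 10 were lower on day 1 and 1 on day 10, beside 27.9% and 11.8% of the entries of all biotypes. All pseudogenes together held between 0.985% and 1.20% of the counts of the 79 genes in each library. By gene the spread was uneven. Over all libraries the pseudogene counts came to 12.3% of those of RPS2 and 192% of those of RPL9. Reads of such near-identical copies, and of transcripts of one gene, are divided by the estimation and carry its uncertainty. On day 0 the protein-coding entry held 52.1% of the counts of RPL11, 53.7% of those of RPS3 and 46.0% of those of RPL37. The changes given above for these genes are of that entry alone.

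RPS27L had the clearest fall of a retained-intron entry among the named genes. It averaged 37.6 CPM on day 0 (23.6 to 57.0 over 5 libraries), 4.14 CPM on day 1 (2.71 to 5.24) and 6.20 CPM on day 10 (5.82 to 6.58). The days after treatment lay below all of day 0, with log2 fold changes of -3.18 (SE 0.305, adjusted p = 9.31e-11) on day 1 and -2.60 (SE 0.293, adjusted p = 1.57e-08) on day 10. Its retained-intron entry was thus lowered on day 1, when the protein-coding entry was at -0.33.

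For the genes named for regulating their own splicing, the entries given here were called lower on both day 1 and day 10. The retained-intron entry of RPS2 averaged 292 CPM on day 0, 151 CPM on day 1 and 229 CPM on day 10 (-0.95 and -0.35, both called), and that of RPS13 averaged 35.1, 15.4 and 18.7 CPM (-1.18 and -0.91, both called). For RPL30 the values were 23.5, 15.4 and 15.8 CPM (-0.61 and -0.57, both called), and for RPS3 13.6, 8.78 and 5.60 CPM (-0.63 and -1.28, both called). RPL12 had a processed-transcript entry, at 99.4, 54.2 and 78.1 CPM (-0.87 and -0.35, both called). RPL13A was named for its fold change and not for its splicing. Its retained-intron entry was not called on day 1 (0.07), when its protein-coding entry was at -1.13.

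**Figure D5:**
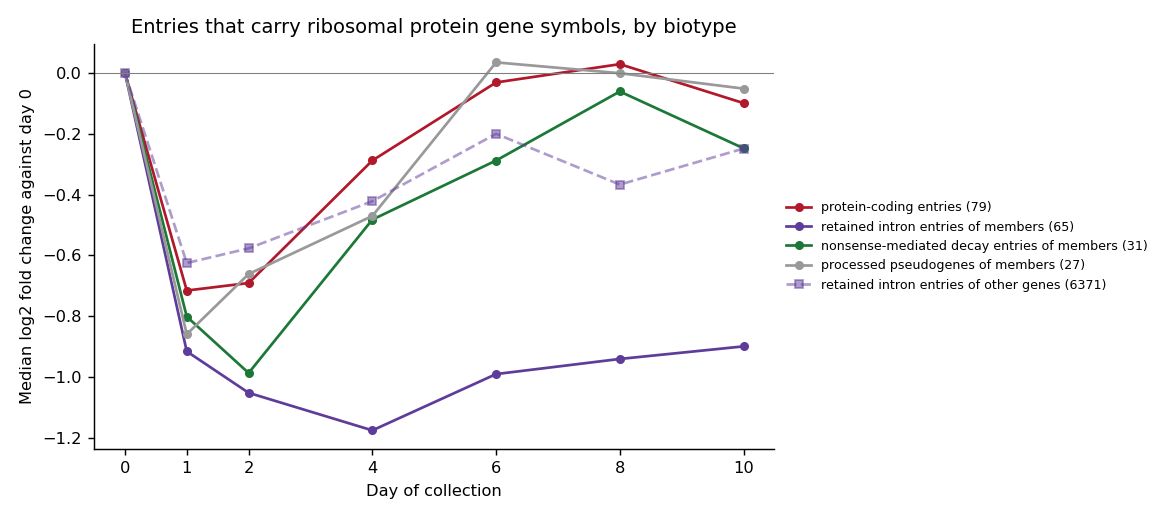
Median log2 fold change against day 0 (y axis) by day (x axis) for the protein-coding entries of the 79 genes, their 65 retained-intron and 31 nonsense-mediated decay entries, 27 processed pseudogenes, and, dashed, 6371 retained-intron entries of other genes. The retained-intron entries of the ribosomal protein genes stay at -0.90 on day 10, when the protein-coding entries are at -0.10.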

How the data were processed

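The authors deposited estimated counts per gene symbol and transcript biotype, made with Kallisto 0.44.0 and summarized with tximport in R 3.5.0, on GRCh38 with the GENCODE annotation. Annotation, GC and length adjustment are as the study's methods state, and the pseudoalignment divides reads that fit several transcripts. No normalization for library size had been applied. RNA came from a directional, paired-end library kit.

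Here protein-coding entries with a count were fitted in edgeR 4.0.16 (R 4.3.3; glmQLFit and glmQLFTest, TMM factors 0.929 to 1.08, day as a factor over 35 libraries, no covariate), with Benjamini-Hochberg adjustment over all entries of a comparison and a call at 0.05. Entries of all biotypes with at least 50 counts were fitted with the same factors. CPM used TMM-scaled library sizes of protein-coding counts. The fit was tested on simulated data first. DESeq2 1.42.0 and other settings are compared in the closing section. Comparisons against day 0 share its libraries.

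The genes and lists were chosen with earlier results of these data known. Genes were named by a rule: the 4 highest and 4 lowest changes on days 1, 2 and 10, the paralogues and their partners, and genes of known roles (the stalk, MDM2 binding, anaemia, variable subunits, splicing autoregulation, RPS6 and RPSA). A few results are not reported here. Positions, coding lengths and start windows came from GENCODE 44 and RefSeq.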

Additional observations from a re-analysis of the deposited data

Results flagged for a closer look

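In 8 of 238 groups of 5 libraries (3.36%), 1 library stood apart from the other 4, while chance alone gives about 1 in 20. The groups were the CPM of 33 named genes and the share of the 79 genes on each day, and the share gave no such library. On day 0, replicate 4 was high for RPL12 at 1608 CPM (others 1417 to 1458), and replicate 3 was low for RPL35 at 1042 CPM (1164 to 1211) and for RPS2 at 2892 CPM (3398 to 3542). On day 1, replicate 1 was low for RPL30 at 630 CPM (663 to 671) and for RPS24 at 599.8 CPM (701 to 721). On day 2, replicate 4 had 0 CPM of RPL3L (1.1 to 1.5). On day 4, replicate 3 was high for RPL26 at 887 CPM (835 to 848) and for RPS24 at 1126 CPM (1030 to 1046).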

How the results depend on the processing

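The calls of days 1 and 2 against day 0 held under every setting tried, with 78 and 77 genes lower, whereas the small counts of days 6, 8 and 10 depended on the setting and the libraries. Without scaling factors the medians on days 1, 2 and 4 were -0.60, -0.56 and -0.17, 2 genes were higher on day 4, 6 were on day 6, 13 on day 8 and 2 were on day 10, when 2 were lower, and 1 was higher on day 10 than on day 8. With scaling computed without the 79 genes, 7 were lower on day 10. With filterByExpr, 2 were lower on day 6, and 1 was higher and 7 were lower on day 10 than on day 8. With only the libraries of the 2 days, 3 were lower on day 6, 3 higher on day 8, 9 lower on day 10 and 0 lower on day 10 than on day 8. With DESeq2, 2 were lower on day 6 and 22 were lower on day 10. DESeq2 also called 1 higher on day 8 than on day 6 and 13 lower on day 10 than on day 8. With counts summed over all biotypes the day 1 median was -0.63 and 7 were lower on day 10. The cause of these differences was not tested.

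Same-numbered libraries shared little deviation: correlations of same-numbered deviations ran from -0.115 to 0.101, and at most 2 of 5 libraries were closest to their own number. This does not show whether a number stands for the same subculture on every day. With the replicate block, 2 genes were lower on day 6 and 5 were lower on day 10 than on day 8.

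Leaving out 1 library gave 1 to 3 genes lower on day 6, 3 to 10 higher on day 8, 0 to 1 higher and 3 to 22 lower on day 10, 4 to 12 lower on day 2 than on day 1, 0 to 1 higher on day 8 than on day 6, and 0 to 1 higher and 0 to 29 lower on day 10 than on day 8. The day 4 median ran from -0.31 to -0.25. Of the values of single named genes, 577 kept their side of the threshold, 24 lost and 11 gained it over the other settings, all on day 10, and 629, 37 and 14 did so over the leave-out fits. A change of sign between values that both missed the threshold was not counted. Most day 10 changes are under 0.25 on the log2 scale, and RPL3L and many entries of other biotypes have few counts per library, so their changes are imprecise.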
